A study of Mus musculus with 5 samples.

Results

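Sparc, Fn1, Thbs1, Bgn, Fbn1, Tnfaip6, Srpx and Pamr1 encode secreted proteins that sit on or between the fibres of the extracellular matrix. They are 8 of the 11194 genes counted in RNA that an antibody against Staufen1 pulled down from muscle stem cells of the mouse, and they were picked by symbol with their difference between the genotypes already known. Their values in that contrast are therefore given as a description, not as a test. Staufen1 is a double-stranded RNA binding protein, and RIP-seq sequences the RNA that an antibody brings down with its target.

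2 immunoprecipitates came from Staufen-/- mice (genotype Stau-/-, libraries StauKO 1 and 2) and 3 from wild-type mice (genotype Stau+/+, libraries WT 1 to 3). All 5 were taken from quiescent skeletal muscle stem cells with the same antibody, and the labels give no age, sex, strain or treatment that sets the groups apart. They also leave unsaid whether the libraries of a group are separate mice, so each p-value covers the spread of these libraries alone, and that spread may be technical. The StauKO immunoprecipitates are the control that the design implies, and every level below is a share of pulled-down RNA. No input RNA was used here. Loss of RNA bound to Staufen1, fewer cells of a type, less RNA per cell and poorer recovery by the antibody cannot be told apart.

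Matricellular proteins such as SPARC and thrombospondin 1 are secreted into the matrix but tune how cells hold on to it, rather than bearing load. Fibronectin and fibrillin 1 assemble into fibrils on which other proteins are laid down, and fibrillin microfibrils hold latent TGF-beta. In muscle, the stem cell lies in a niche between fibre and basement membrane, and fibronectin is known there as a matrix signal that the stem cell itself can supply.

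Totals were 9370244 and 3091302 counts in StauKO 1 and 2, against 105473455, 33846391 and 70042508 counts in WT 1 to 3, so both StauKO libraries were the shallower ones. Stau1 itself, the gene the genotype refers to, had 109.9 ± 1.19 CPM (counts scaled to a common TMM-adjusted library total, SD, n = 2) in the libraries labelled StauKO and 116.4 ± 11.4 CPM (SD, n = 3) in those labelled WT. On the log2 scale Stau1 differed by -0.08 (SE 0.19, adjusted p = 0.847 by edgeR), so gene-level counts do not tell the 2 labels apart at Stau1. Groups below are named by their labels, and each direction rests on them. Pax7, the defining transcription factor of muscle stem cells, had 251.7 and 180.7 CPM in the StauKO libraries and 211.3, 263.2 and 241.5 CPM in the WT libraries. Pax7 overlapped between the groups, but all 13 stem cell markers on the list had a log2 fold change below 0, as had 50.3% of all genes. For 11 of the 13, both StauKO libraries lay below all WT libraries, as for 20.4% of all genes. The list was chosen with earlier results of these data known, so these counts are a description.

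A stretch of DNA upstream of 4 of the genes is shown first, as a description of these loci. Its part in the levels of pulled-down RNA was not tested. RefSeq start sites (GRCm38.p6) were matched for 5 of the 8, Sparc, Bgn, Fbn1, Tnfaip6 and Srpx. Each line holds 120 bases that end just outside the gene span of the table, 5′ to 3′ on the strand of the gene, with motif matches in capitals. The last base printed lies at -1 from the RefSeq start for Sparc and Bgn, at -105 for Tnfaip6 and at -70 for Srpx. The bases printed for Srpx lie within the span of the noncoding gene Gm33844.
Sparc, chr11:55420081-55420200, minus strand: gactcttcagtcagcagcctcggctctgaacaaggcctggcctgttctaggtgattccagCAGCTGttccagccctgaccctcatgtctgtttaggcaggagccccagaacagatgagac
Bgn, chrX:73483481-73483600, plus strand: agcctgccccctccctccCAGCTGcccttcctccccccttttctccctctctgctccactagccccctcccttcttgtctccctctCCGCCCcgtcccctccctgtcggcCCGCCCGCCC
Tnfaip6, chr2:52037889-52038008, plus strand: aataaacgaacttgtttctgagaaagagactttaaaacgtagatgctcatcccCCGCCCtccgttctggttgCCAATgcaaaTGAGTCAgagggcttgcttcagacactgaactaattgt
Srpx, chrX:10117710-10117829, minus strand: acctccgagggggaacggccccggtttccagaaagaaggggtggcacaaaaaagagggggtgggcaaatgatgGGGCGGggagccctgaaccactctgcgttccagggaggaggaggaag

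The motifs searched on both strands over 250 bases before each start were the TATA box TATAAA, the CCAAT box CCAAT, the GC box GGGCGG, the AP-1 site TGANTCA and the MyoD-type E-box CAGCTG. The E-box letters stood before Sparc and Bgn, 2 of the 5 genes with a start, against 12.0% of 11225 promoters of measured genes. An AP-1 match stood before Tnfaip6 alone among the 5, against 4.4% of those promoters. GC boxes stood before Bgn, Fbn1, Tnfaip6 and Srpx, against 59.3%, and the last pair before Bgn overlap each other. CCAAT boxes stood before Tnfaip6 alone among the 5, against 34.1% of those promoters. They lay at -152 to -148 and, outside the printed bases, at -81 to -77 from its start. None of the 5 held the TATA letters in this window, which 6.4% of promoters do. No motif was held by all 5, and a match is only a run of letters. The GC share of the 250 bases ran from 44.4% before Tnfaip6 to 64.4% before Bgn. The median over the measured promoters was 60.4%, and of the 5 only Bgn lay above it.

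All 8 genes were lower in both StauKO libraries than in each of the 3 WT libraries, from Bgn, at 0.623 times the WT level, to Pamr1, at 0.124 times. Their median log2 fold change, StauKO over WT, was -1.03, beside 0.00 over all genes. Both StauKO libraries lay below all WT libraries in 20.4% of all genes tested. In the edgeR quasi-likelihood fit across all genes, 5 of the 8 (Sparc, Fn1, Tnfaip6, Srpx and Pamr1) had an adjusted p under 0.05 and were lower, against 1.05% of the 11194 genes called lower and 2.05% called either way. The fitted log2 fold change was below 0 for all 8, as for 50.3% of all genes. Since this contrast was known when the 8 were picked, nothing is read from these counts. All 8 had passed a filter applied to the table before deposit, by which the third-highest CPM of a gene was never below 3.02. Srpx and Pamr1 passed it only through the 3 WT libraries, so they had to differ, and a gene equally low in WT and high in StauKO could not have entered.

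**Figure D1:**
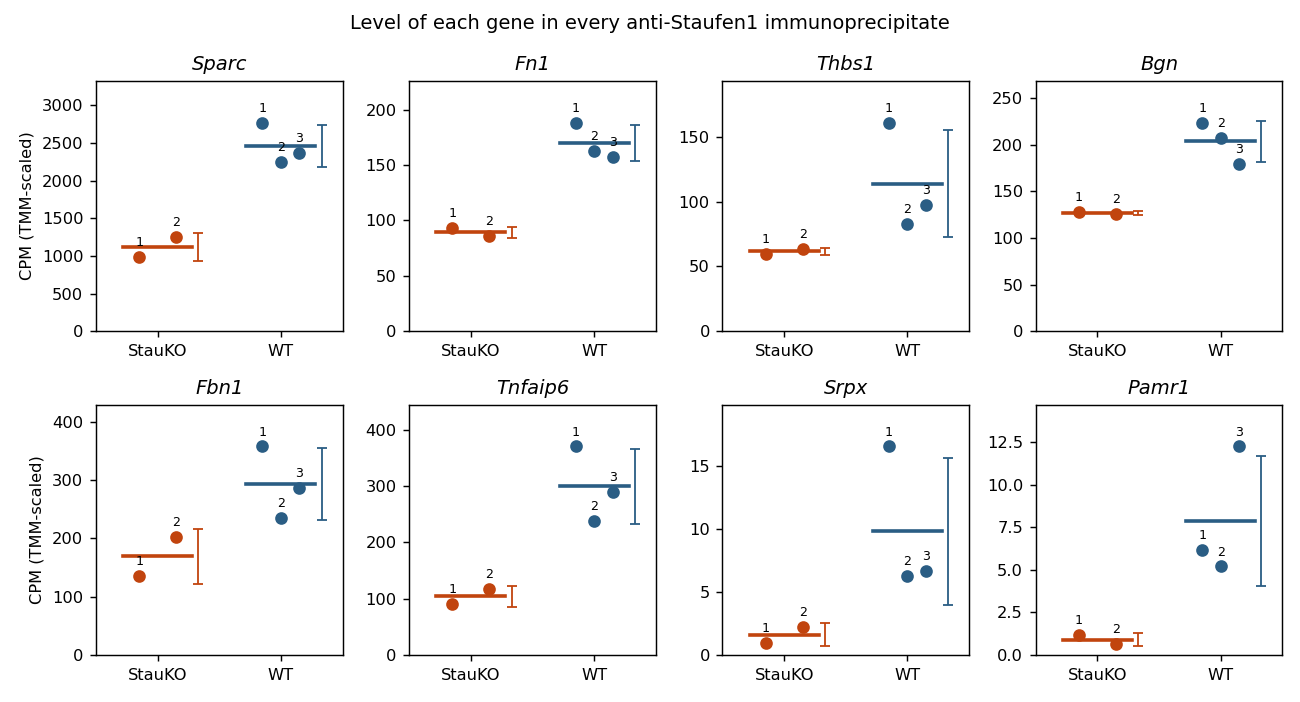
CPM of each of the 8 genes in the libraries labelled StauKO (left, 2 points) and WT (right, 3 points), with the replicate number beside each point, the group mean as a line and the SD as a bar. Each vertical axis starts at 0. The highest StauKO point lies below the lowest WT point in every panel, and the ratio of the lowest WT to the highest StauKO point runs between 1.16 for Fbn1 and 4.51 for Pamr1.

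Among the fibril builders, Fn1 encodes fibronectin, which cells assemble into fibrils through integrins. It lies on chromosome 1 (71585523 to 71653171, minus strand, mm10, 46 exon blocks). Fn1 had 92.9 and 85.9 CPM in StauKO 1 and 2, against 188.2, 163.0 and 157.4 CPM in WT 1 to 3. The libraries of each group lay close together, and the lowest WT library was 1.69 times the highest StauKO library. Fn1 differed by a log2 fold change of -0.92 with an SE of 0.19 (adjusted p = 0.0281 by edgeR), or 1.89-fold lower in StauKO.

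Fbn1 encodes fibrillin 1, the main protein of microfibrils. It lies on chromosome 2 (125300594 to 125507993, minus strand, mm10, 65 exon blocks) and, with 12128 bases of exon, was the longest of the 8. Fbn1 had 136.0 and 202.0 CPM in StauKO 1 and 2, against 357.6, 234.3 and 286.8 CPM in WT 1 to 3. StauKO 2 came within a factor of 1.16 of WT 2, the lowest such ratio of the 8. For Fbn1 the fitted difference was -0.80 on the log2 scale (SE 0.23), with an adjusted p of 0.0786 by edgeR. It was -0.54 without StauKO 1 and -1.11 without StauKO 2.

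Bgn encodes biglycan, a small leucine-rich proteoglycan that binds collagen fibrils and, in muscle, the dystrophin-associated complex. The gene lies on chromosome X (73483602 to 73495933, plus strand, mm10). Bgn had 128.2 and 125.7 CPM in StauKO 1 and 2, against 223.8, 207.9 and 179.7 CPM in WT 1 to 3. Both groups were tight, and Bgn had the smallest difference of the 8, -0.68 on the log2 scale (SE 0.19, adjusted p = 0.0704 by edgeR).

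Among the matricellular proteins, Sparc encodes a calcium- and collagen-binding glycoprotein that is needed for orderly collagen fibrils. It lies on chromosome 11 (55394500 to 55420080, minus strand, mm10). Sparc had 988.2 and 1249.9 CPM in StauKO 1 and 2, against 2769.7, 2246 and 2366 CPM in WT 1 to 3. These rest on 9436 and 3929 counts, against 286339, 73867 and 167974 counts, the most of any of the 8. The WT libraries differed by a factor of 1.23 at most, while the lowest of them was 1.80 times the higher StauKO library. Sparc differed by -1.14 on the log2 scale (SE 0.19, adjusted p = 0.0141 by edgeR), or 2.20-fold lower in StauKO.

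Thbs1 encodes thrombospondin 1, a ligand of the receptors CD36 and CD47 that can also activate latent TGF-beta. It lies on chromosome 2 (118111876 to 118127133, plus strand, mm10). Thbs1 had 59.9 and 63.6 CPM in StauKO 1 and 2, against 161.0, 83.1 and 97.7 CPM in WT 1 to 3. WT 1 stood well above the other two WT libraries, which were nearer to the StauKO values than to WT 1. Thbs1 came to a log2 fold change of -0.89 with an SE of 0.27 (adjusted p = 0.0881 by edgeR), and to -0.55 without WT 1.

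Tnfaip6 encodes TSG-6, an inflammation-induced protein that binds hyaluronan and moves the heavy chains of inter-alpha-inhibitor onto it. It lies on chromosome 2 (52038009 to 52056686, plus strand, mm10) and, with 1710 exonic bases, was the shortest of the 8. Tnfaip6 had 91.1 and 117.7 CPM in StauKO 1 and 2, against 370.4, 237.8 and 290.3 CPM in WT 1 to 3. Every WT library was at least 2.02 times every StauKO library. On the log2 scale Tnfaip6 differed by -1.53 (SE 0.23, adjusted p = 0.00977 by edgeR), or 2.88-fold lower in StauKO. It had the smallest p of the 8, rank 12 of 11194.

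The other two are low in every library and carry the biggest fold changes. Srpx encodes a sushi-repeat protein and lies on chromosome X (10037977 to 10117709, minus strand, mm10). It had 0.943 and 2.23 CPM in StauKO 1 and 2, against 16.5, 6.23 and 6.65 CPM in WT 1 to 3. Its counts were 9 and 7, against 1709, 205 and 472. At the WT mean level, StauKO 1 would have held 93.6 counts and StauKO 2 would have held 30.8 counts. WT 1 alone was 2.65 times WT 2, so the WT libraries disagree among themselves about the size of the gap.

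Srpx differed by -2.80 on the log2 scale (SE 0.68, adjusted p = 0.0495 by edgeR), and by -2.16 without WT 1. Summed over libraries, the ratio of StauKO to WT counts per effective library total was 0.109, with a 95% exact binomial interval of 0.0625 to 0.178, which covers counting error only. The deposited span of Srpx reaches a few bases into the noncoding gene Gm33844 at its 5′ end, while its RefSeq span stops short of it.

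Pamr1 encodes a secreted protein with a peptidase-like domain, named for its link to muscle regeneration. It lies on chromosome 2 (102550012 to 102643041, plus strand, mm10). It had 1.15 and 0.636 CPM in StauKO 1 and 2, against 6.15, 5.20 and 12.2 CPM in WT 1 to 3. The StauKO values rest on 11 and 2 counts, where the WT mean level would have given 75.1 and 24.7 counts. Here WT 3 was the high library, and the lowest WT library was still 4.51 times the higher StauKO library, the highest such ratio of the 8. Pamr1 came to -3.01 on the log2 scale (SE 0.67, adjusted p = 0.0376 by edgeR), with a summed count ratio of 0.127 (95% exact binomial interval 0.0673 to 0.217).

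**Figure D2:**
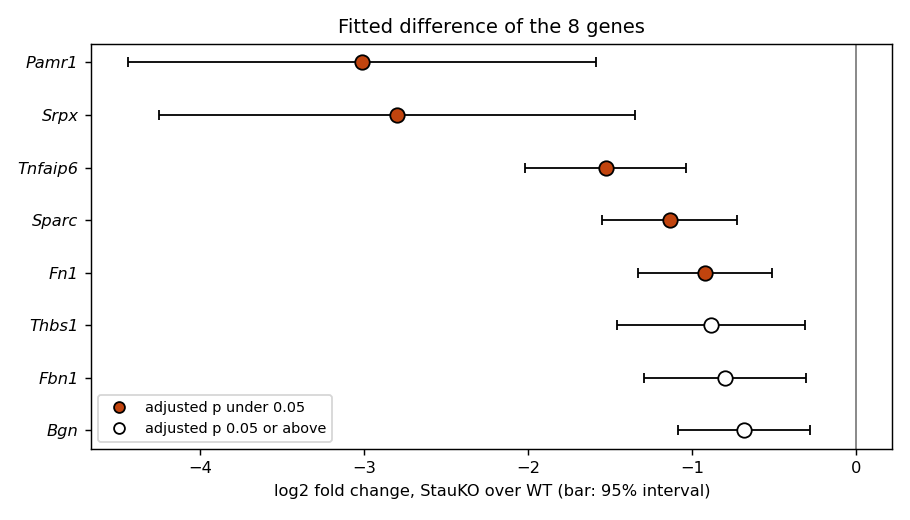
Log2 fold change, StauKO over WT, of each of the 8 genes with its 95% interval from the edgeR fit, filled where the adjusted p was under 0.05. The intervals of Srpx and Pamr1, at -4.25 to -1.35 and -4.44 to -1.58, are several times wider than that of Fn1, at -1.33 to -0.51.

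The calls depended on single libraries, as the plot with each library left out shows. With 1 StauKO library left out, the other is a lone sample assumed to vary like the WT libraries, which then give all of the spread. All 8 stayed lower in StauKO each time, which follows from groups that do not overlap. Tnfaip6 kept an adjusted p under 0.05 with each of the 5 libraries left out (0.0453 at most, edgeR). Sparc lost it without StauKO 1 (adjusted p = 0.0644) and without WT 3 (adjusted p = 0.0502). Fn1, Srpx and Pamr1 kept it only without WT 2. Without StauKO 1 or StauKO 2, the adjusted p of Fn1 was 0.0761 or 0.108, that of Srpx 0.155 or 0.0588 and that of Pamr1 0.0764 or 0.0859 (edgeR). Without WT 1 or WT 3, it was 0.0925 or 0.0857 for Fn1, 0.194 or 0.0879 for Srpx and 0.0848 or 0.144 for Pamr1 (edgeR). Without WT 2, Thbs1 and Fbn1 also went under the threshold, at 0.0455 and 0.0448. Bgn did not pass in any of these fits.

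**Figure D3:**
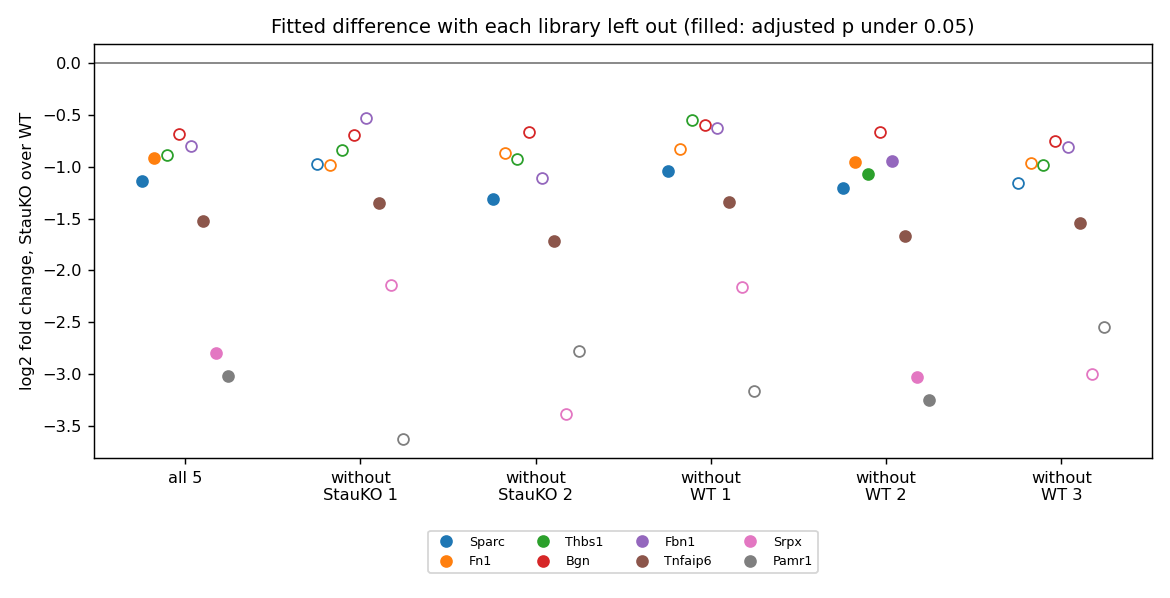
Log2 fold change, StauKO over WT, of the 8 genes with all 5 libraries and with each library left out, filled where the edgeR adjusted p was under 0.05. Tnfaip6 stays between -1.72 and -1.34 and is filled in every column, while Srpx moves between -3.38 and -2.14 and Pamr1 between -3.63 and -2.54.

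Levels of different genes were compared per length of exon, as FPKM (CPM per kilobase of exon). Sparc had by far the highest level, at 332.4 ± 55.0 FPKM in StauKO (SD, n = 2) and 730.9 ± 81.4 FPKM in WT (SD, n = 3), above 99.1% of all genes by mean level. Tnfaip6 followed at 61.1 ± 11.0 and 175.1 ± 39.1 FPKM, above 95.6% of genes. Bgn came next, at 20.8 ± 0.293 and 33.4 ± 3.66 FPKM.

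Fbn1 (13.9 ± 3.85 and 24.1 ± 5.10 FPKM in StauKO and WT), Fn1 (10.8 ± 0.595 and 20.4 ± 1.97 FPKM) and Thbs1 (10.2 ± 0.433 and 18.8 ± 6.82 FPKM) formed a middle group whose order was not resolved beyond their spread. Srpx (0.598 ± 0.342 and 3.70 ± 2.20 FPKM) and Pamr1 (0.148 ± 0.0603 and 1.30 ± 0.632 FPKM) closed the order. Pamr1 was above only 3.46% of genes. The order of the means was the same in both groups. In CPM, which is not scaled to length, Fbn1 moved from place 4 to place 2, Tnfaip6 to 3 and Bgn to 4.

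The WT libraries also differed among themselves, in values that took part in the contrast by which the 8 were picked. WT 1 was the highest WT library for 7 of the 8, all but Pamr1, where 33.7% of all genes have WT 1 highest. WT 2 was the lowest for 6 of the 8, all but Fn1 and Bgn, against 34.8% of all genes. The same order of WT libraries stood in the mean centred log2 CPM of other lists: small leucine-rich proteoglycans were at 0.51 in WT 1 and -0.19 in WT 2, tendon cell markers at 0.42 and -0.14, macrophage markers at 0.45 and -0.13 and fibro-adipogenic progenitor markers at 0.22 and -0.29. It is therefore not particular to the 8. The proteoglycan and progenitor lists share Dcn and Lum, and the proteoglycan and tendon lists share Fmod. Other lists departed from that order. WT 3 lay above WT 1 for microfibril and elastic fibre genes (0.23 and 0.22) and receptors (0.26 and 0.19). It did so too for muscle stem cell markers (0.29 and 0.25). WT 3 lay below WT 2 for hyaluronan genes (-0.01 and 0.03) and sushi and CUB domain relatives (0.0349 and 0.0359). WT 1 is also the deepest and WT 2 the shallowest WT library, and the part of depth in the order of the WT libraries was not tested. The coefficient of variation between WT libraries ran from 9.65% for Fn1 to 59.4% for Srpx, with a median of 21.7% beside 17.0% over all genes.

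By distance between centred log2 CPM profiles over the 5 libraries, Fn1 and Bgn were the most alike pair of the 8 (root mean square distance 0.13) and Bgn and Pamr1 the least (1.28). Among 10213 other named genes with at least 5 CPM, the nearest to the mean profile of the 8 were Gpatch2l (0.04), C1galt1c1 (0.08) and Olfml2b, an olfactomedin-family matrix protein (0.08). The nearest to Sparc were Taf5l (0.05), Pdia4, a protein disulfide isomerase of the endoplasmic reticulum (0.06), and Col4a1, a basement membrane collagen chain (0.06). Fn1 lay nearest to Sox9, Rnf217 and Plekha3 (0.05 to 0.06), Bgn to Ugcg, Rad21 and Gnpnat1 (0.02 to 0.03) and Fbn1 to Siah2, Rhbdl3 and Klf5 (0.05 to 0.07). Thbs1 lay nearest to Jdp2, Rragd and Ccl7 (0.09 to 0.10), and Tnfaip6 to C1galt1c1, Gpatch2l and C1qtnf6 (0.10 to 0.13). The low genes had no near match: Srpx lay 0.35 to 0.48 from Yod1, Alg9 and Fam117b, and Pamr1 0.49 to 0.57 from Mir6358, Tlr4 and Klhl25. A short distance over 5 libraries is a description only.

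In the genome, 4 of the 8 (Tnfaip6, Pamr1, Thbs1 and Fbn1) lie on chromosome 2, which holds 7.96% of the genes tested, and Bgn and Srpx lie on chromosome X, which holds 3.11%. Those on chromosome 2 are far apart, as their coordinates above show. Stau1, the gene the genotype refers to, lies on chromosome 2 as well, and whether that bears on their values was not tested. Exon length had a median of 6059.5 bases over the 8, beside 3804.5 bases over all genes.

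Most genes related to the 8 did not pass the test. Over 7 lists drawn from textbook roles, with earlier results of these data known, 106 of 137 genes were in the table. Of these, 8 were lower in StauKO by the edgeR test, against the 1.05% of all genes already given, 2 were higher, against 1.00%, while 96 did not pass. Their median was -0.17 on the log2 scale. Like those of the 8, these counts are given as a description. Over all genes, 118 were lower and 112 higher, and 93 lower and 143 higher with total counts in place of TMM scaling.

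Among 20 matricellular relatives, 1 was lower and 1 was higher, with a median of 0.02. Ccn2, connective tissue growth factor, had 120.7 ± 39.8 CPM in StauKO (SD, n = 2), against 262.4 ± 56.2 CPM in WT (SD, n = 3). It differed by -1.13 on the log2 scale (SE 0.25, adjusted p = 0.0357 by edgeR). Sparcl1, the closest relative of Sparc, went the other way: it had 219.3 and 153.3 CPM in StauKO 1 and 2, against 88.2, 67.1 and 92.0 CPM in WT 1 to 3. Sparcl1 was higher by 1.18 on the log2 scale (SE 0.21, adjusted p = 0.0152 by edgeR). Sparc and Sparcl1 thus had opposite signs in the same libraries.

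The microfibril and elastic fibre list held 3 lower genes and 0 higher ones among 22, with a median of -0.35. They were Ltbp1, Ltbp4 and Ltbp2, whose proteins bind microfibrils, and Ltbp1 also anchors latent TGF-beta in the matrix. Ltbp1 had 228.8 ± 9.77 CPM in StauKO and 465.8 ± 28.8 CPM in WT (-1.03 on the log2 scale, SE 0.18, edgeR adjusted p = 0.0151). Ltbp4 had 1048 ± 88.8 and 1819 ± 149 CPM (adjusted p = 0.0387), and Ltbp2 had 3.21 ± 0.493 and 12.2 ± 1.78 CPM (adjusted p = 0.0459, edgeR). Ltbp3, the remaining gene of that family on the list, did not pass, at -0.38 with an edgeR adjusted p of 0.282, and was looked up after these calls were seen.

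Of 7 hyaluronan genes, 1 was lower and 0 were higher, with a median of -0.33. It was Itih5, an inter-alpha-inhibitor heavy chain of the protein family that TSG-6 works on. Itih5 had 61.3 and 66.5 CPM in StauKO 1 and 2, against 144.5, 96.5 and 127.8 CPM in WT 1 to 3 (-0.95 on the log2 scale, SE 0.22, edgeR adjusted p = 0.0437).

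Of 18 receptors, 2 were lower and 1 was higher, with a median of -0.30. Sdc4, the syndecan that binds fibronectin beside integrins, was at -0.94 (SE 0.19, edgeR adjusted p = 0.0251), and Lrp1, an endocytic receptor that takes up thrombospondin 1, was at -0.73 (SE 0.17, edgeR adjusted p = 0.0462). Cd36, a thrombospondin 1 receptor that capillary endothelium also expresses, was higher by 1.17 on the log2 scale (SE 0.23, edgeR adjusted p = 0.0222).

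Of 20 matrix proteases and inhibitors, 1 was lower and 0 were higher, with a median of -0.10. The 1 lower gene, Serpinh1, is a collagen chaperone and not a protease inhibitor in its known role. It had 503.4 ± 43.9 CPM in StauKO and 1104 ± 169 CPM in WT (-1.13 on the log2 scale, SE 0.19, edgeR adjusted p = 0.0142).

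2 lists held no called gene in edgeR. Over all 11194 genes, 1168 were lower and 1118 higher at an unadjusted p under 0.05 in edgeR. DESeq2 called 434 lower and 466 higher of all genes, and limma-voom 8 and 14. Among 9 small leucine-rich proteoglycans, the family of biglycan, the median was -0.39, 3 had an unadjusted p under 0.05 with lower values, DESeq2 called 2 lower and limma-voom 0. Prelp was at -0.79 (edgeR adjusted p = 0.0544) and Chad at -1.33 (edgeR adjusted p = 0.0648). Among 10 relatives with sushi or CUB domains, the median was -0.06, 2 had an unadjusted p under 0.05, and DESeq2 and limma-voom called 0. Svep1 was at -0.74 and Pcolce2 at -0.86, with edgeR adjusted p of 0.102 and 0.133.

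These calls also depended on single libraries. Of the 8 lower and 2 higher related genes, 0 and 0 were called without StauKO 1 or without WT 3, 2 and 2 without StauKO 2 or without WT 1, and 7 and 2 without WT 2, with edgeR adjusted p up to 0.159.

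**Figure D4:**
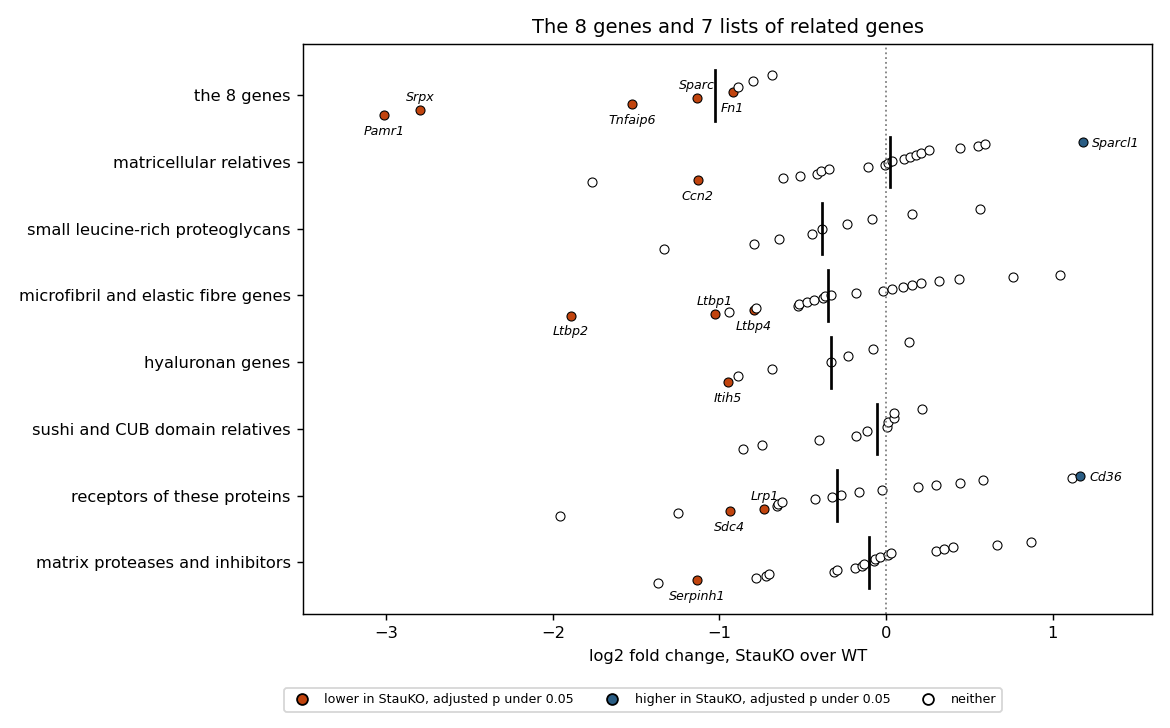
Log2 fold change, StauKO over WT, of the 8 genes (top row) and of the measured genes in 7 lists of related genes, 1 point per gene, with the median of each row as a line. Filled points passed the edgeR test. The top row lies wholly below 0, as its choice fixed, while the rows of related genes spread across 0 with medians between -0.39 and 0.02.

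Markers of other cells that make these proteins were followed in the same libraries. Over all 11194 genes, edgeR called 1.05% lower and 1.00% higher by adjusted p. At an unadjusted p under 0.05, 1168 of all genes were lower and 1118 higher, DESeq2 called 434 and 466, and limma-voom 8 and 14. Fibro-adipogenic progenitors, the collagen-making cells of muscle, had 15 of 18 markers in the table, of which 0 were lower and 1 (Ly6a) was higher. At an unadjusted p under 0.05, 2 were lower and 3 were higher, DESeq2 called 1 lower and 1 higher, and limma-voom 0. Their summed level was 3199 and 3162 CPM in StauKO 1 and 2, against 4678, 3076 and 4175 CPM in WT 1 to 3, so the groups overlapped. Most of that sum was 1 gene, Gsn, at 2089 and 2032 CPM in StauKO, against 3170, 2140 and 2963 CPM in WT. Tendon cell markers (9 of 10) summed to 895.2 and 809.0 CPM, against 1201, 884.9 and 1076 CPM, with 0 lower and 1 (Mkx) higher, and 1 marker was at 0 in a library. Macrophage markers (7 of 11) summed to 157.0 and 139.3 CPM, against 199.9, 118.9 and 159.7 CPM, and pericyte markers (10 of 10) to 1931 and 2132 CPM, against 1866, 1541 and 1835 CPM, with 0 called by edgeR in either list. At an unadjusted p under 0.05, 1 macrophage marker was lower, and 1 pericyte marker was lower and 3 were higher. DESeq2 called 1 macrophage marker lower and 1 pericyte marker higher, and limma-voom 0. Of the tendon markers, 2 were lower and 1 was higher at an unadjusted p under 0.05, DESeq2 called 1 lower and 1 higher, and limma-voom 0. Chodl, 1 of those 2 lower tendon markers, is on the stem cell list as well. It had 312.1 and 242.7 CPM in StauKO 1 and 2, against 500.8, 445.9 and 464.3 CPM in WT 1 to 3.

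Summed levels did not overlap between the groups for stem cell, endothelial and pericyte markers, the pericyte sums being those given above. Muscle stem cell markers (13 of 13) summed to 3745 and 3921 CPM in StauKO, against 6693, 5932 and 6297 CPM in WT. By edgeR adjusted p, 4 were lower (Sdc4, Myod1, Msc and Fgfr4), against 1.05% of all genes, and 0 higher. At an unadjusted p under 0.05, 10 were lower and 0 higher, DESeq2 called 7 lower and limma-voom 0. Endothelial markers (15 of 15) summed to 3739 and 3417 CPM in StauKO, against 2153, 1579 and 1773 CPM in WT. By edgeR adjusted p, 7 were higher, against 1.00% of all genes, and 0 lower. At an unadjusted p under 0.05, 14 were higher and 0 lower, DESeq2 called 13 higher and limma-voom 1. Both StauKO libraries lay above all WT libraries for 14 of the 15, against 18.1% of all genes. Muscle fibre markers (9 of 12) lay below every WT library in StauKO 1 and above every WT library in StauKO 2, at 414.7 and 2566 CPM, against 592.6, 535.0 and 630.5 CPM. Schwann cell markers (7 of 7) overlapped between the groups in their sum, at 640.3 and 516.3 CPM, against 542.1, 408.9 and 494.4 CPM. Much of that sum was Pmp22, at 240.2 and 196.9 CPM in StauKO, against 325.8, 237.8 and 323.2 CPM in WT. Both StauKO libraries lay above all WT libraries for 4 of the 7, as for 18.1% of all genes. The Schwann cell median was 0.90 on the log2 scale, with 2 of the 7 below 0. At an unadjusted p under 0.05 in edgeR, 4 were higher and 0 lower, DESeq2 called 2 higher and limma-voom 1. By adjusted p in edgeR, 1 muscle fibre marker (Casq1) and 1 Schwann cell marker (Mbp) were higher, against 1.00% of all genes. The part of these shifts in the values of the 8 genes was not tested.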

How the data were processed

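RNA pulled down with anti-Staufen1 was reverse-transcribed from 100 pg with oligo(dT) priming, amplified for 13 to 15 cycles and sequenced as paired 101 bp reads, per the labels' protocols. The submitters' processing notes list edgeR, featureCounts (Subread), STAR and Trim Galore, and the mm10 build. Tool versions, strand option and annotation were not given in the sources used here. Gene-level raw counts and an exon length in bases make up the deposited table. It had been filtered on expression: the third-highest CPM of a gene was never below 3.02.

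Counts were tested in R 4.3.3 with edgeR 4.0.16 (filterByExpr, which removed 0 genes, TMM, glmQLFit, two-sided glmQLFTest, Benjamini-Hochberg over 11194 genes, threshold 0.05), with 5 libraries and no block. Log2 fold changes are StauKO over WT. CPM and FPKM use TMM-scaled totals and the deposited length. DESeq2 1.42.0 and limma-voom (limma 3.58.1) were alternatives, with other scalings, filters, thinning to equal depth and left-out libraries. Replicates differed beyond sampling noise (chi-square per degree of freedom of 17.7 or more). Of 10826 Entrez identifiers, 10824 matched RefSeq. The 8 genes and all lists (7 of related genes, 8 of cell markers) were chosen with earlier results of these data known. Named are all 8, per list up to 4 called genes or else the 2 of smallest p, and the 3 nearest profiles. The limit set by 0 counts (3 counts) is 0.954 CPM in StauKO 2 and 0.0290 CPM in WT 1; limits and intervals cover counting error only.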

Additional observations from a re-analysis of the deposited data

How the results depend on the processing

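Each of the 8 genes stayed lower in StauKO under every alternative that tested it. Against 5 of the 8 lower by edgeR, DESeq2 called 8, limma-voom 2, a minimum of 10 counts in every library 3 (it removes Srpx and Pamr1), and RLE factors, upper-quartile factors, total counts and thinning to equal depth 4 each, Srpx being the gene lost. With libraries left out in turn the count ran from 1 to 7. Related genes lower numbered 8, against 17 with DESeq2, 1 with limma-voom and 0 to 14 with libraries left out. Over all genes, 118 were lower and 112 higher, against 434 and 466 with DESeq2 (435 genes had no adjusted p), 8 and 14 with limma-voom, 11 to 176 lower and 23 to 172 higher with libraries left out. The cause of these differences was not tested.

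The replicate numbers of the labels do not state a pairing, and deviations of same-numbered libraries correlated at 0.05 and 0.04 over genes. With 2 StauKO libraries, the deviations of 1 mirror those of the other. StauKO 2 with WT 1 therefore gave -0.05, and StauKO 1 with WT 2 gave -0.04. These values cannot decide whether a pairing exists. With the replicate number as a block, which gives WT 3 no part in the contrast, 8 of the 8 genes, 14 related genes, and 288 lower and 324 higher genes overall were called. No scaling moved the median of all genes by over 0.1. Depth limits Srpx and Pamr1 most, since their StauKO values rest on 16 and 13 counts in all; thinned to equal depth, Srpx was at -2.11 with an edgeR adjusted p of 0.101.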
